A study of Solanum lycopersicum with 6 samples.

Results

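The genes described here are 7 regulators of meristem maturation and their partners in tomato (Solanum lycopersicum), taken from 34075 gene IDs. They are FALSIFLORA (FA, Solyc03g118160.3), ANANTHA (AN, Solyc02g081670.1), COMPOUND INFLORESCENCE (S, Solyc02g077390.2), TMF (Solyc09g090180.1), BOP1 (Solyc04g040220.3), BOP2 (Solyc10g079460.1) and BOP3 (Solyc10g079750.2). They were chosen by name, with earlier results of these data known. They were found by ID, without the version suffix, in each of 2 deposited tables, where all 7 had 1 row. RNA was sequenced from dormant axillary buds, the resting buds in leaf axils, of plants 25 days after germination. The genotypes, with 2 samples each, were rSBP15, the line titled 156OE (miR156-OE from here on) and the wild type, all in the cultivar labelled MT. From the study, miR156-OE is known as an overexpressor of the microRNA miR156, rSBP15 as an overexpressor of a form of SBP15 that miR156 does not target, and MT as Micro-Tom, a dwarf cultivar with a mutant SELF-PRUNING gene that all groups share. The promoters of the transgenes and the number of independent lines are not given in the sources used here. About 20 buds, taken from 4 to 5 plants, were pooled for a sample.

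A shoot meristem passes from making leaves to making flowers, and the timing of this maturation shapes the branching of the tomato inflorescence. FA encodes the tomato counterpart of the Arabidopsis transcription factor LEAFY, AN encodes the counterpart of the F-box protein UNUSUAL FLORAL ORGANS, and S encodes a WUSCHEL-related homeobox protein. TMF, a nuclear protein of the ALOG family, holds back maturation and keeps AN from being switched on early. The BLADE-ON-PETIOLE proteins BOP1, BOP2 and BOP3 are transcriptional cofactors with BTB and ankyrin domains that work with TMF in the tomato meristem. miR156 lowers transcripts of SBP-box transcription factors, which promote the change from vegetative to reproductive growth in plants.

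For every gene the authors deposited a log fold change with its p-value, once for rSBP15 against MT and once for miR156-OE against MT. Neither table states a logarithm base, so the values are given as deposited and not as folds. Values of single libraries are not in the tables, so depth and expression levels are unknown, and genes cannot be ranked by level. Standard errors were recovered from the deposited values, as was the largest gap that the 2 libraries of a genotype can have. Genes with a log fold change other than 0 are called detected. There were 25329 of these for rSBP15 and 24920 for miR156-OE, and all 7 genes were among them in both. The threshold was an adjusted p of 0.05 (Benjamini-Hochberg over all detected genes). The labels do not say whether samples of 1 genotype came from separate plantings, so the p-values measure only the spread between these samples.

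The 3 genes that drive maturation, FA, AN and S, had log fold changes below 0 in both lines, from -0.90 to -0.15. The BOP genes were above 0 in rSBP15 (0.11 to 0.18) and below 0 in miR156-OE (-0.21 to -0.013). TMF was above 0 in both, with the largest standard error of the 7. At an adjusted p under 0.05, 0 of the 7 genes passed in rSBP15 by the authors' limma-type p-values, where 5.58% of all detected genes did, and 0 of 7 passed in miR156-OE, where 0.0201% did. At an unadjusted p under 0.05, 4 of 7 passed in rSBP15, against 33.3% of all detected genes. Of these 3 were lower (FA, AN and S), against 16.2% of detected genes, and 1 was higher (BOP2), against 17.1%. In miR156-OE 3 of 7 did, against 13.2%, and all 3 were lower (FA, AN and S), against 7.3% of detected genes. The median log fold change of the 7 genes was 0.11 in rSBP15 and -0.19 in miR156-OE, while that of all detected genes was 0.00053 and -0.00059. Their median size was 0.21 in rSBP15 and 0.19 in miR156-OE, against 0.11 and 0.060 over all detected genes. The detected genes include those with a signal in 1 of 4 libraries alone (1262 in rSBP15 and 1224 in miR156-OE). Levels are unknown, so the 7 genes could not be set beside genes of like level. Both comparisons share the MT libraries, so like values in the 2 lines are not independent of each other.

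**Figure D1:**
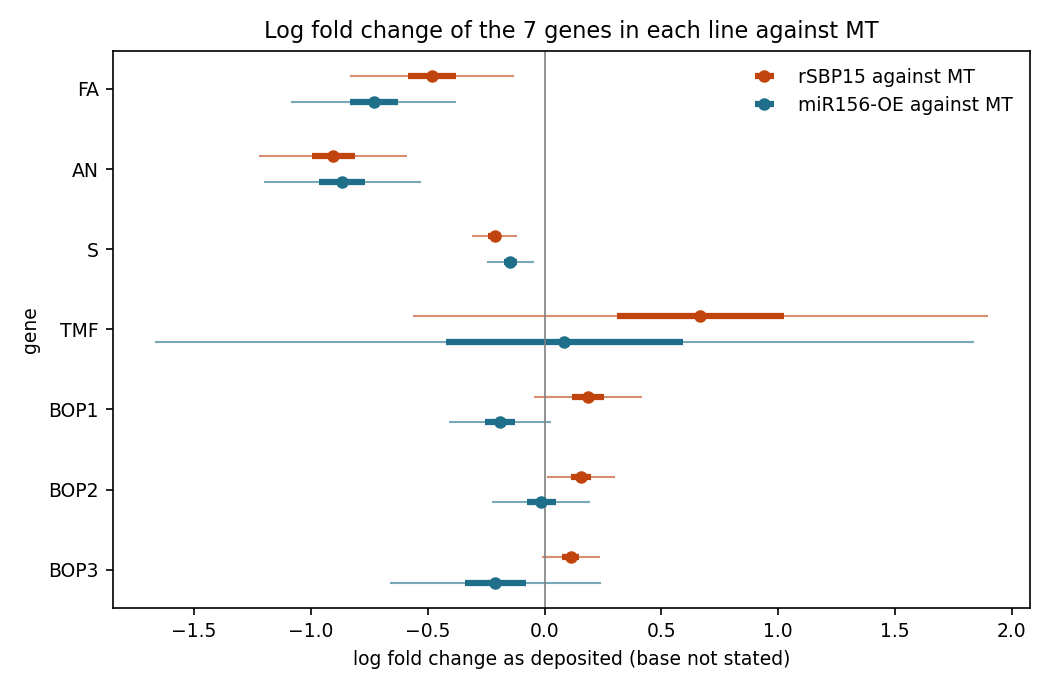
Log fold change (horizontal axis, as deposited, base not stated) of the 7 genes in rSBP15 against MT and in miR156-OE against MT. Points are the deposited values, thick bars the recovered standard error on each side and thin bars the 95% interval of the moderated test. FA, AN and S lie left of 0 in both lines, and the BOP genes lie right of 0 in rSBP15 and left of it in miR156-OE.

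AN had the largest log fold change of the 7 genes in either line. In the authors' deposited tables it stood at -0.90 in rSBP15 (recovered standard error 0.0923, 95% interval -1.22 to -0.59). In miR156-OE it stood at -0.87 in the authors' deposited table (standard error 0.0972, interval -1.20 to -0.53). Few genes lay lower: 321 of the 25329 detected genes (1.27%) in rSBP15 and 84 of the 24920 (0.337%) in miR156-OE. The unadjusted p-values in the authors' deposited tables were 0.00477 in rSBP15 and 0.00611 in miR156-OE, and the adjusted p-values 0.0586 and 0.213. In rSBP15 the adjusted p ranged from 0.00986 to 0.123 over 5 other forms of the test and so crossed the threshold. It was 0.0289 with the variance moderation refitted without undetected genes. A fit of all 6 libraries gave 0.0233 with the residual variance at its upper bound (called the largest variance) and 0.00986 with it at its lower bound (the smallest). In miR156-OE the range was 0.0477 to 0.412, with only the 6-library fit at the smallest variance under 0.05.

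The spread behind the AN values was small beside their size, but not beside that of other genes, of which 29.1% in rSBP15 and 35.9% in miR156-OE had a larger standard error. The 2 rSBP15 libraries were at most 0.185 apart on the scale of the log fold change, the 2 miR156-OE libraries 0.0614 to 0.194 and the 2 MT libraries at most 0.185. A log fold change over 1.41 times its standard error means that the libraries of the genotypes compared cannot overlap, however the spread is divided between them. For AN this ratio was 9.80 in rSBP15 and 8.91 in miR156-OE, so the libraries of each line lay wholly below those of MT.

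FA also had values below 0 in both lines, with the larger size in miR156-OE. Its log fold change was -0.48 in rSBP15 in the authors' deposited table (standard error 0.102, 95% interval -0.83 to -0.13). In miR156-OE it was -0.73 in the authors' deposited table (standard error 0.102, interval -1.08 to -0.38). FA was lower than MT in every library of each line, since the sizes were 4.70 and 7.16 times the standard error in rSBP15 and miR156-OE. In rSBP15 1471 detected genes (5.81%) lay lower than FA, and in miR156-OE 134 genes (0.538%) did. The unadjusted p-values in the authors' deposited tables were 0.0254 and 0.0101, and the adjusted p-values 0.109 and 0.243. Over the other forms of the test the adjusted p ranged from 0.0278 to 0.179 in rSBP15, where the 6-library fit at the smallest variance gave the value under 0.05, and from 0.0577 to 0.440 in miR156-OE.

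S had the smallest values of the 3 genes that drive maturation, with a standard error below that of 67.4% of detected genes in rSBP15 and 69.5% in miR156-OE. Its log fold change was -0.21 in rSBP15 in the authors' deposited table (standard error 0.0281, 95% interval -0.31 to -0.12). In miR156-OE it was -0.15 in the authors' deposited table (standard error 0.0294, interval -0.25 to -0.045). Libraries of the same genotype were at most 0.0587 apart, and those of each line lay wholly below those of MT. A larger size than that of S was listed for 32.3% of detected genes in rSBP15 and 25.6% in miR156-OE. Its unadjusted p-values in the authors' deposited tables, 0.00849 and 0.0227, stood above those of 12.3% and 7.60% of detected genes. The adjusted p was 0.0689 in rSBP15 and 0.299 in miR156-OE. Over the other forms of the test it ranged from 0.0154 to 0.134 in rSBP15, and from 0.0994 to 0.489 in miR156-OE. In rSBP15 it was 0.0422 with the moderation refitted. The 6-library fit gave 0.0375 at the largest variance and 0.0154 at the smallest.

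TMF, the gene that holds maturation back, had wide intervals in both lines and passed in neither. Its log fold change was 0.67 in rSBP15 in the authors' deposited table (standard error 0.359, 95% interval -0.56 to 1.90). In miR156-OE it was 0.085 in the authors' deposited table (standard error 0.507, interval -1.67 to 1.84). The intervals include both the opposite sign and changes larger than that of AN. The adjusted p-values were 0.299 and 0.959. Only 1.05% of detected genes in rSBP15 and 0.774% in miR156-OE had a larger standard error. The 2 miR156-OE libraries differed by 0.716 to 1.01, while those of rSBP15 and those of MT differed by at most 0.717. The rSBP15 libraries lay above those of MT, at 1.86 times the standard error, whereas the miR156-OE libraries overlapped those of MT.

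**Figure D2:**
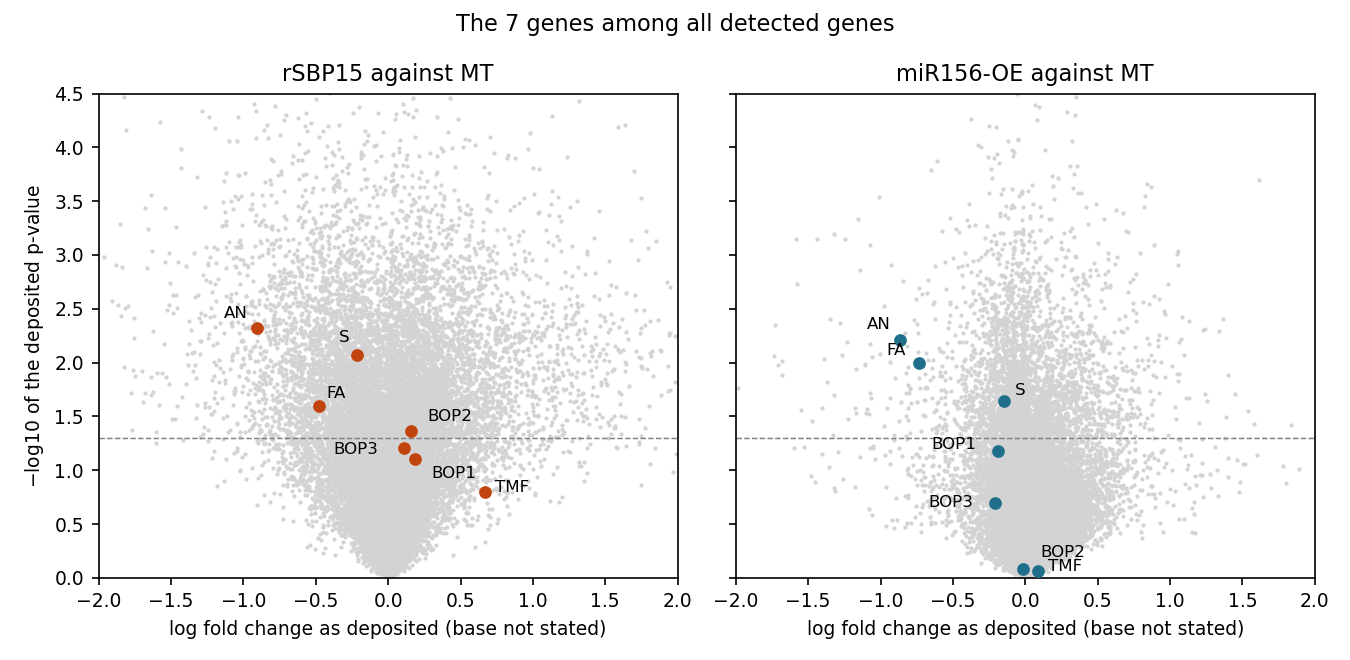
Deposited log fold change (horizontal axis, base not stated) against the −log10 of the deposited p-value (vertical axis) for all detected genes (grey) and the 7 genes (coloured), in rSBP15 against MT (left) and miR156-OE against MT (right). The dashed line marks an unadjusted p of 0.05, and 111 and 12 genes beyond the axes are not drawn. AN stands left of most genes in both panels, with 321 and 84 detected genes further left, and TMF lies low in both.

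The 3 BOP genes had values above 0 in rSBP15. BOP1 was at 0.18 in the authors' deposited table (standard error 0.0674, 95% interval -0.046 to 0.42), BOP2 at 0.16 (standard error 0.0424, interval 0.010 to 0.30) and BOP3 at 0.11 (standard error 0.0361, interval -0.012 to 0.24). The unadjusted p-values in the authors' deposited table were 0.0788, 0.0434 and 0.0622, and the adjusted p-values 0.193, 0.140 and 0.169. Each size was over 1.41 times its standard error, a bound that 62.3% of detected genes met. The rSBP15 libraries therefore lay above those of MT for each of the 3 genes. These are ordinary sizes for this comparison, in which 36.4% of detected genes had a larger one than BOP1, 41.0% than BOP2 and 49.5% than BOP3.

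In miR156-OE the values of the BOP genes were below 0. BOP1 was at -0.19 in the authors' deposited table (standard error 0.0635, 95% interval -0.41 to 0.029), BOP2 at -0.013 (standard error 0.0606, interval -0.22 to 0.20) and BOP3 at -0.21 (standard error 0.130, interval -0.66 to 0.24). The adjusted p-values were 0.416, 0.943 and 0.609, and the unadjusted p-values listed in the authors' deposited table were 0.0668, 0.830 and 0.202. The miR156-OE libraries lay below those of MT for BOP1 and BOP3 and overlapped them for BOP2. In this comparison libraries could not overlap for 37.9% of detected genes. For BOP3 the standard error was 3.62 times that in rSBP15. Its 2 miR156-OE libraries differed by 0.251 to 0.261, while its rSBP15 and its MT libraries differed by at most 0.0721.

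Counted over the 7 genes, the libraries could not overlap those of MT for all 7 in rSBP15, where 62.3% of detected genes met the same bound. In miR156-OE they could not for 5 of 7, the exceptions being TMF and BOP2, against 37.9% of detected genes.

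The lines were compared with each other through the difference of their log fold changes, from which the shared MT value drops out. The spread was set at the largest value the tables allow. BOP1 was higher in rSBP15 than in miR156-OE by 0.38 (standard error at most 0.0925, 95% interval 0.11 to 0.64), with an unadjusted p of 0.0203 and an adjusted p of 0.161. It was the 1 gene of the 7 with an unadjusted p under 0.05, against 21.7% of 25657 genes in either direction and 11.1% higher in rSBP15, and 0 of 7 passed after adjustment, where 0% of all genes did. The adjusted p of BOP1 ranged from 0.0184 to 0.359 over 4 other forms of the test and was under 0.05 in the 6-library fit, at 0.0452 with the largest variance and 0.0184 with the smallest. The other BOP genes had differences of the same sign, 0.17 for BOP2 (standard error at most 0.0740, interval -0.045 to 0.38) and 0.32 for BOP3 (standard error at most 0.135, interval -0.052 to 0.70), with adjusted p-values of 0.297 and 0.271. For each BOP gene the libraries of rSBP15 lay above those of miR156-OE, while libraries of the 2 lines could not overlap for 48.4% of all genes.

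**Figure D3:**
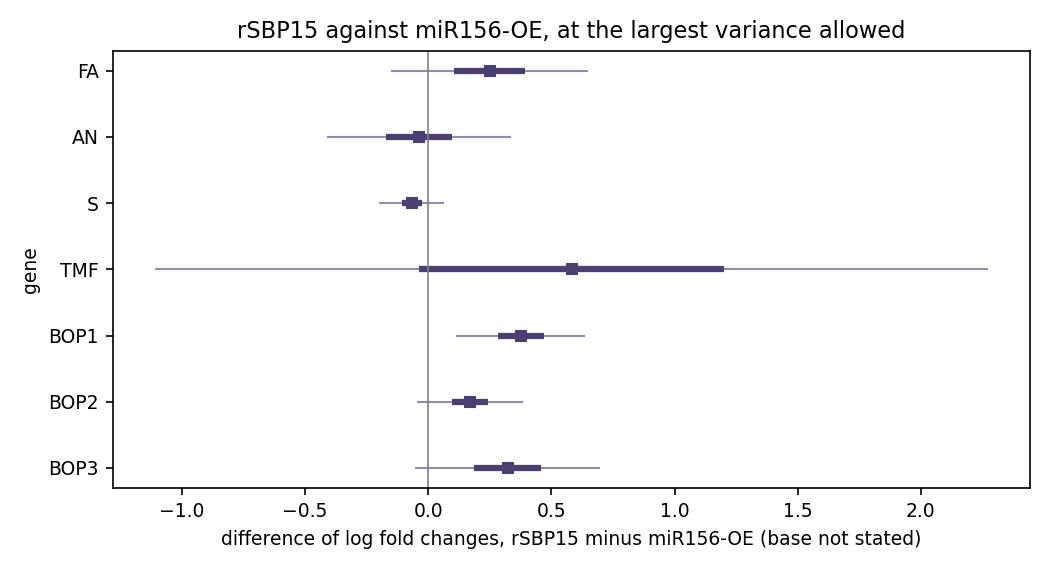
Difference between the log fold changes of rSBP15 and miR156-OE (horizontal axis, rSBP15 minus miR156-OE, base not stated) for the 7 genes. Squares are the differences, thick bars the largest standard error the tables allow and thin bars the 95% interval. Of the 7 intervals, that of BOP1, 0.11 to 0.64, does not include 0.

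Among the maturation genes, AN differed between the lines by -0.038 (standard error at most 0.134, 95% interval -0.41 to 0.33), with an adjusted p of 0.952. The interval leaves room for a difference of up to 0.41, so equal levels are not shown. FA was higher in rSBP15 than in miR156-OE by 0.25 (standard error at most 0.144, interval -0.15 to 0.65) and S lower by a difference of -0.068 (standard error at most 0.0406, interval -0.20 to 0.064), with adjusted p-values of 0.381 and 0.461. The libraries of the lines did not overlap for FA or S. TMF had a difference of 0.58 with an interval of -1.11 to 2.27 and an adjusted p of 0.636, and whether its libraries overlapped is not decided by the tables. Nor is it for AN. In all, libraries of the lines could not overlap for 5 of 7 genes, against 48.4% of all genes.

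**Figure D4:**
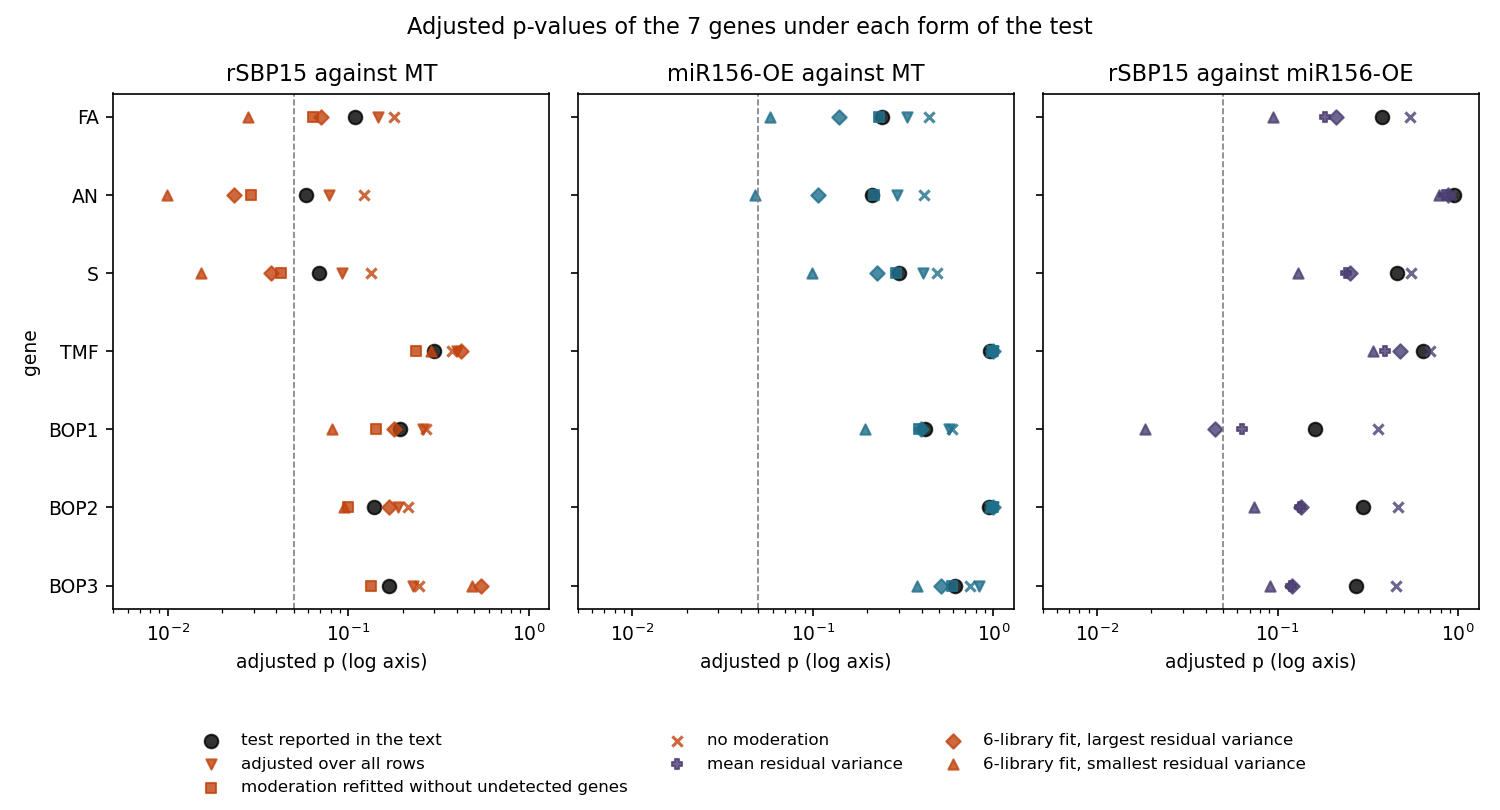
Adjusted p (horizontal axis, logarithmic) of the 7 genes in the 3 comparisons under each form of the test, with the threshold of 0.05 dashed. Black circles are the values reported in the text. FA, AN and S in rSBP15 against MT, AN in miR156-OE against MT and BOP1 in rSBP15 against miR156-OE stand on either side of the threshold depending on the form of the test, and the other values stay above it.

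The 7 genes were set beside 18 other flowering and inflorescence gene IDs. These were listed from general knowledge of tomato, since neither table gives names, but with earlier results of these data known. Of these, 16 were detected in each comparison and 2 were listed at 0. In rSBP15, 8 were above 0 and 8 below 0 (range -0.96 to 1.00, median -0.028), where 50.5% and 49.5% of all detected genes were. At an unadjusted p under 0.05, 4 were higher and 3 lower, against 17.1% and 16.2% of detected genes. After adjustment 1 of the 16 passed, as a higher value, against 2.65% of detected genes. This was Solyc02g065730.2, higher at 1.00 in the authors' deposited table (recovered standard error 0.0238, adjusted p 0.0259). The rSBP15 libraries could not overlap those of MT for 13 of the 16, against 62.3% of detected genes. In miR156-OE all 16 detected IDs were below 0 (range -1.24 to -0.00030, median -0.55), where 50.7% of detected genes were. The value nearest to 0 had a standard error of 0.21, so its sign is not informative. For 12 of the 16 the libraries could not overlap those of MT, against 37.9% of detected genes. By the limma-type test 0 passed after adjustment, against 0.0201% of all genes. At an unadjusted p under 0.05, 8 of the 16 were lower and 0 higher, against 7.3% and 5.94% of detected genes. In rSBP15 against miR156-OE, 14 of the 16 differences were above 0 (median 0.40), against 51.9% of all genes. Of the 16, 9 were higher in rSBP15 at an unadjusted p under 0.05, against 11.1% of all genes, and 0 passed after adjustment, against 0%. Libraries of the lines could not overlap for 11 of the 16, against 48.4% of all genes. Of the 7 genes, 6 were below 0 in miR156-OE, TMF being the exception. These include BOP2 at -0.013 (standard error 0.0606), whose libraries overlapped those of MT. Of the 7, 3 were lower at an unadjusted p under 0.05, against 7.3% of detected genes.

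**Figure D5:**
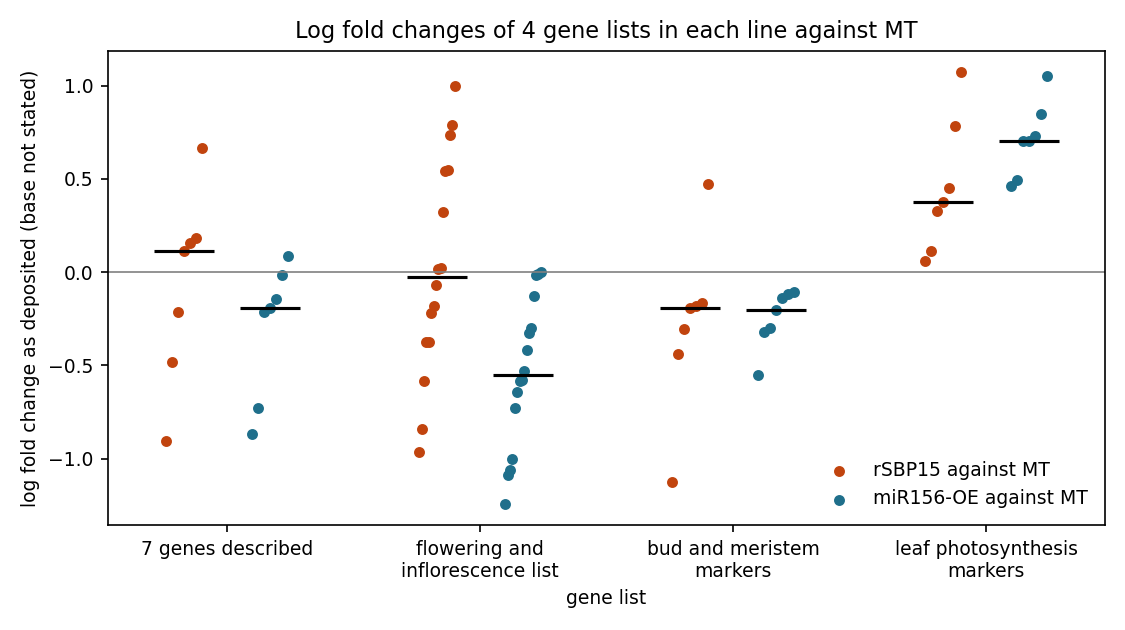
Deposited log fold change (vertical axis, base not stated) of every detected gene of 4 lists (horizontal axis), in rSBP15 against MT and miR156-OE against MT. Each point is a gene and each black line the median of a list, for example 0.11 and -0.19 for the 7 genes and -0.028 and -0.55 for the flowering and inflorescence list.

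Tissue markers stood beside these values as follows, and their part in them was not tested. Both marker lists were chosen with earlier results of these data known. All 7 IDs of an axillary bud and meristem list were detected. In rSBP15 6 of 7 were below 0 (range -1.13 to 0.48, median -0.19), against 49.5% of detected genes, and 2 of 7 passed the adjusted threshold as lower values, against 2.94%. The larger of these was that of Solyc07g062840.3, at -1.13 in the authors' deposited table (recovered standard error 0.0398, adjusted p 0.0314). In miR156-OE 7 of 7 were below 0 (range -0.55 to -0.11, median -0.20), against 50.7% of detected genes. Of these 0 passed, against 0.0201%, and 5 had an unadjusted p under 0.05, against 7.3% of detected genes that were lower at that level. The 7 IDs of a leaf photosynthesis list were above 0 in both lines, from 0.062 to 1.07 in rSBP15 (median 0.38) and from 0.46 to 1.05 in miR156-OE (median 0.71). Over all detected genes 50.5% were above 0 in rSBP15 and 49.3% in miR156-OE. Of the leaf list 0 passed the adjusted threshold in either line. Over all detected genes 2.65% passed as higher values in rSBP15 and 0% in miR156-OE. At an unadjusted p under 0.05, 3 of the leaf list were higher in each line, against 17.1% of detected genes in rSBP15 and 5.94% in miR156-OE. In pooled buds, fewer cells of a type and less RNA per cell cannot be told apart. Detection held for all 7 IDs of both lists, and for 25329 (rSBP15) and 24920 (miR156-OE) of all 34075 IDs. With no level given for any gene, detection cannot tell bud from leaf, so the labelled tissue could not be checked.

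The gene whose pair of log fold changes lay nearest to that of AN was Solyc11g012130.2, at -0.89 in rSBP15 and -0.82 in miR156-OE in the authors' deposited tables, a distance of 0.0446 over the 2 comparisons. The next was Solyc06g150133.1, at -0.95 and -0.93 in the authors' deposited tables and a distance of 0.0783. The files name neither. Of the 7 genes, FALSIFLORA, BOP1, BOP2 and BOP3 (4 genes) have symbols in the RefSeq gene table for the tomato assembly SLM_r2.1, which places them on chromosomes 3, 4, 10 and 10. In that assembly 28 genes start between BOP2 and BOP3. Between their ID numbers lie 28 other IDs, 25 of which were detected. In rSBP15 4 of these were higher and 5 lower at an unadjusted p under 0.05 (median -0.0053), against 17.1% and 16.2% of all detected genes. In miR156-OE 3 were higher and 0 lower (median 0.025), against 5.94% and 7.3%.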

How the data were processed

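Messenger RNA was selected by its poly(A) tail from DNase-treated total RNA (TRIzol) and made into stranded Illumina TruSeq libraries, per the labels' protocols. HISAT2 and StringTie are named in the submitters' processing notes. The genome build, annotation, scaling and test are not given in the sources used here. For each of 34075 IDs, 2 tables hold what the authors deposited, a log fold change with its p-value, per the file headers. No counts were given.

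Where 1 of 4 libraries alone has a signal, the squared log fold change is the residual variance. Such genes (1262 for rSBP15 and 1224 for miR156-OE, within 1e-06 in p of 1 curve) gave the prior of limma's moderated test, 0.360 and 0.347 degrees of freedom, and with it every gene's residual variance. limma 3.58.1 (R 4.3.3) returned the same prior from these variances. Genes at 0 (8746 and 9155) had a p of 1. The difference between the lines was tested on the sum of both variances, with the moderation refitted over genes detected in either table. The tables were taken to share MT libraries, since 402 genes had the same nonzero value in both, all below 0. MT spread enters both variances, which bounds the gap between the libraries of each genotype. The recovery was tested on simulated data. The 7 genes and all lists were chosen with earlier results of these data known. All 7 genes were named in each comparison, with the ID of largest size in another list where it passed.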

Additional observations from a re-analysis of the deposited data

How the results depend on the processing

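No paired analysis was possible because single libraries have no values in the tables. Leaving out a replicate and other scalings, pseudocounts or filters were not run, as they need the same values. The direction of every value was the same throughout, since each alternative changes the test alone. Of the 7 genes, 0 passed in rSBP15 against MT as reported. This became 2 (AN and S, lower) with the moderation refitted without undetected genes, against 14.7% of detected genes. In the 6-library fit it was 2 at the largest residual variance, against 11.3%, and 3 at the smallest, where FA joined, against 19.9%. By unadjusted p it was 4, against 33.3%. In miR156-OE against MT it was 0 as reported, against 0.0201% of detected genes. The 6-library fit at its smallest variance gave 1 (AN, lower), against 0.899%, and unadjusted p gave 3, against 13.2%. In rSBP15 against miR156-OE it was 0 as reported, where 0% of all genes passed. It was 1 (BOP1, higher) in the 6-library fit, against 14.4% at the largest variance and 23.2% at the smallest. By unadjusted p it was also 1 (BOP1), against 21.7%. It stayed at 0 in each comparison without moderation and at a threshold of 0.01, also with the adjustment over all rows in the comparisons with MT, and with the mean variance in rSBP15 against miR156-OE. The cause was not tested. The 6-library fits assume 1 variance in all genotypes. Over all genes, the calls in rSBP15 against MT numbered 1414 as reported (5.58%), 544 over all rows (1.6%), 3711 refitted and 43 unmoderated (0.17%). They numbered 2865 and 5040 in the 6-library fit, and at a threshold of 0.01 the share was 0.0079%. In miR156-OE against MT they numbered 5, 0, 0, 2, and then 0 and 224. In rSBP15 against miR156-OE they numbered 0 as reported, 1994 at the mean variance (7.77%), 0 unmoderated, and 3702 and 5961 with all 6 libraries. Depth is unknown, so its limits are not given.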
